A study of Mus musculus with 24 samples.

Results

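This account concerns 70 mouse genes that stood higher in granulosa cells after 4 h with human chorionic gonadotropin (hCG) and whose mean after 12 h was less than a set amount above that of cells without it. They were chosen by measured values from 39253 genes listed in the count table. The difference at 4 h, here called d4, is the mean log2(CPM + 1) with hCG minus that in plain medium, where CPM is the count per 1000000 counts of its library. The difference at 12 h, d12, was formed in the same way. A member had d4 of at least 1, d12 below 0.3 and a mean of at least 5 CPM with hCG at 4 h. The limits were met by 72 genes, of which 2 were dropped, either by name or as predicted genes with placeholder symbols.

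The cells were primary granulosa cells of C57BL/6 mice aged 23 days, taken 48 h after pregnant mare serum gonadotropin (PMSG), which makes follicles grow. Cells of 2 mice were pooled, given either a negative control siRNA (siNC) or one aimed at neurotensin, Nts (siNTS), over 3 h, and then held in hCG or plain medium for 4 or 12 h. The 24 libraries form 6 groups of 4: at both times, siNC cells in medium, siNC cells with hCG and siNTS cells with hCG. No siNTS group was held without hCG, and all groups share PMSG and transfection. Libraries carry the labels A_1, A_2, B_2 and B_3 in every group, and values below are listed in that order. A_1 came from one culture date, A_2 and B_2 from another and B_3 from the last, so labels and dates cannot be told apart for A_1 and B_3. Whether A_2 and B_2 are separate pools of mice is not given in the sources used here, and p-values measure the spread between these libraries.

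The rule used the 16 siNC libraries, so every siNC value of the members, and every difference between siNTS and siNC cells, is given as a description with no test. The 8 siNTS libraries took no part in the choice, and the change between their 4 h and 12 h groups was tested. They share culture dates with the siNC libraries. Single labels could differ between siNC and siNTS cells with hCG. In A_1 at 4 h Jag1 stood at 136 CPM with siNC and 78.7 CPM with siNTS, and Wincr1 at 4.84 and 8.15 CPM. The members' group means with hCG lay close in siNTS and siNC cells. Differences of these means on the log2(CPM + 1) scale ran from -0.43 to 0.17 at 4 h and from -0.64 to 0.61 at 12 h. The test thus largely repeats the siNC pattern that chose the members and is no independent check of it. Without siNTS cells in medium, time with hCG and time in culture cannot be told apart in that test.

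hCG binds the receptor for luteinizing hormone and raises cyclic AMP in granulosa cells of a preovulatory follicle. Protein kinase A then acts on CREB-family transcription factors, and EGF-like ligands released from the same cells switch on the ERK cascade. Such a response is known to come in waves: early genes include transcription factors, secreted signals and inhibitors that feed back on the pathway, and many of their transcripts are short-lived.

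Library totals ran from 26182190 to 45401149 estimated counts, with a median of 39228498. All 15 granulosa markers had a mean of at least 1 CPM, and their summed level in siNC cells was 9210 to 10100 CPM in medium and 5920 to 7850 CPM with hCG at 4 h, and 6920 to 8790 CPM and 3930 to 4880 CPM at 12 h. Nts was lower with its siRNA than with siNC in the library of the same label at both times, at 1.73 to 43.4 against 15.4 to 183 CPM at 4 h and at 0.0741 to 2.63 against 1.48 to 9.99 CPM at 12 h.

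Across the members d4 had a median of 1.24 and ran from 1.01 to 3.23, while the median over 15405 genes tested was -0.08. It was 2 or more in 7 members. At 12 h, where the rule left out values of 0.3 or more, the members' median d12 was -0.00, with 35 below 0 and 35 above. Over all genes tested the median d12 was -0.08, with 9427 below 0 and 5976 above. A value of -0.5 or lower was found in 8 members, the lowest being -1.19 for Bmp3, which encodes a BMP-family protein. These values chose the members. A d12 under the limit leaves room for a remaining difference. At 12 h every hCG library of siNC cells lay above every medium library in 2 members, beside 8.38% of genes tested: Poldip3 stood at 176 to 191 CPM with hCG and 150 to 162 CPM in medium, and Wincr1 at 0.173 to 0.536 and 0.0537 to 0.164 CPM. In 6 members, Adgrv1, Bmp3, Gabrb2, Gcnt4, Itprip and Jag1, every hCG library lay below, beside 14.2% of genes tested. For members with few counts at 12 h the pseudocount of 1 also draws d12 towards 0. Both siNC means at 12 h were under 1 CPM in 10 members, and in 2 of these, Wincr1 and Npy, the CPM mean with hCG was still 3.32 and 3.26 times that in medium.

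**Figure D1:**
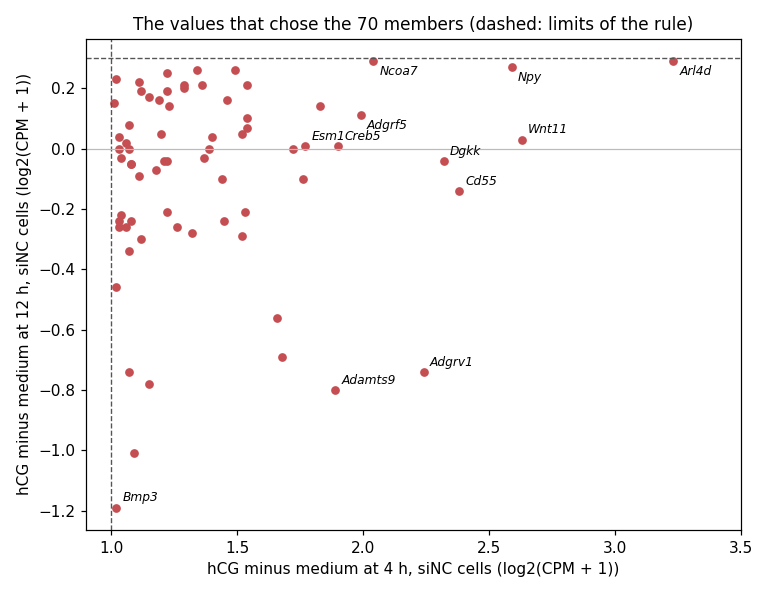
The difference between hCG and medium at 4 h (horizontal) and at 12 h (vertical) in siNC cells, in log2(CPM + 1), for the 70 members, each a point; dashed lines mark the limits of 1 and 0.3. Arl4d lies farthest right at 3.23, and Bmp3 lies lowest at -1.19.

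At the limit for d4, the members just inside were Klf9 at 1.01 and Sema3c and Bmp3 at 1.02, and the genes just outside were Ret at 0.99 and Tead1 and Atf3 at 0.98. At the limit for d12, Arl4d and Ncoa7 at 0.29 and Npy at 0.27 were inside, while Top1 and Vgf at 0.30 and Npr1 at 0.31 were outside. At the limit for level, Wincr1 at 5.3, Plxna4 at 5.41 and Nes at 5.42 CPM were inside, and Plek at 4.95 and Fgl2 at 4.58 CPM were outside. Genes with almost equal values thus fall on different sides.

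The promoters of the members were read for motifs of factors that act in this response. RefSeq promoter windows (build GRCm38.p6, 250 bases before to 50 after a start site) were found for 54 of 70 members. The full cyclic AMP response element (CRE, TGACGTCA) stood in 3 members, Arl4d, Creb5 and Zdbf2, or 5.56% of those with a window, against 3.33% of 12035 tested genes and 2.03% of all 27025 genes of the promoter table. Its shorter core TGACG, which lies inside the full element, stood in 24 members or 44.4%, against 33.3% and 23% on the same bases. The CArG box, bound by serum response factor, stood in 2, Dusp5 and Ncoa7, or 3.7%, against 1.6% and 1.81%.

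The other motifs were searched on both strands too. AP-1 (TGANTCA) stood in 7 members, or 13% against 6.84% of tested genes and 8.97% of all. The GC box (GGGCGG) stood in 43, or 79.6% against 65.9% and 38.2%, and the NF-kB motif in 37, or 68.5% against 70.8% and 53.5%. C/EBP (TTGCGCAA) and the SF-1 site (CAAGGTCA) stood in 0 of 54 member windows, against 0.316% and 1.35% of tested genes and 0.207% and 1.76% of all. Median GC content was 62.3% in member windows and 60.3% in those of tested genes. A match describes letters only, and a missing match says nothing of the factor.

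The 250 bases before the start site follow for the 3 members with a full CRE and for Dusp5, where a CRE core and CArG boxes share 1 window; this choice was made after the matches were seen. Capitals mark CRE, CRE core and CArG box matches on either strand. The CRE begins at base -26 from the start in Arl4d (chr11:101665291-101665540, plus strand), at -45 in Creb5 (chr6:53287053-53287302, plus strand) and at -59 in Zdbf2 (chr1:63273019-63273268, plus strand). In Dusp5 (chr19:53528895-53529144, plus strand) CArG boxes begin at -82 and -72 and the core, on the minus strand, at -55.
Arl4d: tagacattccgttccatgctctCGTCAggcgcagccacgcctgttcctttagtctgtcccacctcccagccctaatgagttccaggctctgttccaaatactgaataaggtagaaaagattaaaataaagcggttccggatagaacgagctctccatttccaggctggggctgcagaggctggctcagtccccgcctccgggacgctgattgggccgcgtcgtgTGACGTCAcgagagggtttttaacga
Creb5: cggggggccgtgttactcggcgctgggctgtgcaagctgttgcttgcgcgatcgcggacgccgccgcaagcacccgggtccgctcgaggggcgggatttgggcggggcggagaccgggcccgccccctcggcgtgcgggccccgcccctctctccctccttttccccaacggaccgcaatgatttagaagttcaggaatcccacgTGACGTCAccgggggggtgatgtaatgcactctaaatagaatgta
Dusp5: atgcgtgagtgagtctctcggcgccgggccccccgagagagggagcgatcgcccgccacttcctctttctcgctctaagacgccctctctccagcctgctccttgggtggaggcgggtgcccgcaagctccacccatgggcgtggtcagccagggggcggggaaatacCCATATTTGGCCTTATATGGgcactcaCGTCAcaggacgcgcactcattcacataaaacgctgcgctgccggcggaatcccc
Zdbf2: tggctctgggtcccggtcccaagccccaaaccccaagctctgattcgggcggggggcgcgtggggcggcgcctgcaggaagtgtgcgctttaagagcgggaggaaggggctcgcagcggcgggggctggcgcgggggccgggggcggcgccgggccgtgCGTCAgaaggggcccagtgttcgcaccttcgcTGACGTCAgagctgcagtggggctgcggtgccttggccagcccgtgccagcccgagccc

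The 7 members with d4 of 2 or more were Arl4d, Wnt11, Npy, Cd55, Dgkk, Adgrv1 and Ncoa7. Arl4d, a small GTPase of the ARF-like family, stood at 2.52, 2, 2.73 and 3.51 CPM in siNC cells in medium at 4 h and at 27.4, 42.8, 30.5 and 34 CPM with hCG. The siNTS cells with hCG gave 31.1, 44.1, 29 and 35 CPM at 4 h against 2.92, 1.97, 1.54 and 7.2 CPM at 12 h. All 4 h libraries with hCG lay above all other libraries. In siNC cells at 12 h the values were 1.62, 1.45, 1.28 and 1.94 CPM in medium and 2.03, 1.98, 1.85 and 2.76 CPM with hCG, so that hCG libraries were still slightly above medium within each label. In siNTS cells Arl4d fell by 3.32 on the log2 scale from 4 h to 12 h (standard error 0.33, edgeR adjusted p = 1e-07), with B_3 the highest library at 12 h.

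In siNTS cells 63 of the 70 members fell between 4 h and 12 h with hCG (edgeR's quasi-likelihood test, Benjamini-Hochberg adjusted p under 0.05 over all genes tested), and 0 rose. Among all genes tested 19.9% fell and 22.6% rose. The choice of members on siNC libraries of the same culture dates already made a fall likely. At an unadjusted p under 0.05 the members gave 64 lower and 0 higher, and DESeq2 gave 63 and 0 and limma-voom 64 and 0 after adjustment. The median change of the members was -1.99 on the log2 scale, ranging from -6.36 to -0.16, against a median of -0.00 over all genes tested. In 60 members every 12 h library lay below every 4 h library, which was so for 16.4% of genes tested. Fewer cells of a kind and less RNA per cell cannot be told apart in such bulk libraries.

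Summed markers of some cell types moved over the same siNTS contrast. The 15 granulosa markers summed to 5810 to 7920 CPM at 4 h and 3970 to 5160 CPM at 12 h, with 5 of 15 tested genes lower and 5 higher. The 13 macrophage markers summed to 19.9 to 24.6 CPM at 4 h and 10.8 to 14 CPM at 12 h, with 4 of 10 tested genes lower and 0 higher. The 8 surface epithelium markers summed to 188 to 311 CPM and 86.6 to 143 CPM, with 4 of 5 tested lower and 0 higher. That sum lay mostly in the keratins Krt8, at 70.8 to 276 CPM over all libraries, and Krt18, at 14.4 to 73.8 CPM. The highest of the other markers was Krt19 at 5.35 CPM, and Upk3b, Upk1b and Msln reached at most 0.324, 0.111 and 0.317 CPM. The 8 theca and interstitial markers summed to 1010 to 1830 CPM and 3660 to 5830 CPM, with 2 of 6 tested lower and 2 higher. Most of that sum was Hsd3b1, at 853 to 5970 CPM over all libraries, which rose by 1.74 (log2) in this contrast. Lhcgr stood at 7.87 to 568 CPM and Ptch1 at 36.2 to 101 CPM. None of these sums overlapped between times, while those of the remaining lists below did. Fibroblast markers summed to 10.9 to 19 CPM at 4 h and 10.4 to 25 CPM at 12 h. Oocyte markers summed to 10.8 to 24.5 CPM and 3.99 to 15.7 CPM, and smooth muscle markers to 25.4 to 44.8 CPM and 36.7 to 69.8 CPM. Endothelial markers are given further on. The defining theca genes Cyp17a1 and Insl3 reached at most 1.47 and 0.331 CPM in any library. The part of these cells in the members' levels was not tested.

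Taken label by label, and so within culture dates, 68 members were lower at 12 h in A_1, 70 in A_2, 68 in B_2 and 68 in B_3, and 65 were lower in every label. The members' median differences on the log2(CPM + 1) scale were -1.91, -1.77, -1.70 and -2.01 in that order of labels, with medians over all tested genes of -0.01, -0.02, 0.01 and -0.04. The share of all tested genes lower in a label was not counted. The members' medians were of similar size in each label, while single members differed. Galnt18 changed by -1.81 in A_1 and -4.11 in B_3, and Arl4d by -3.03 in A_1 and -2.13 in B_3.

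**Figure D2:**
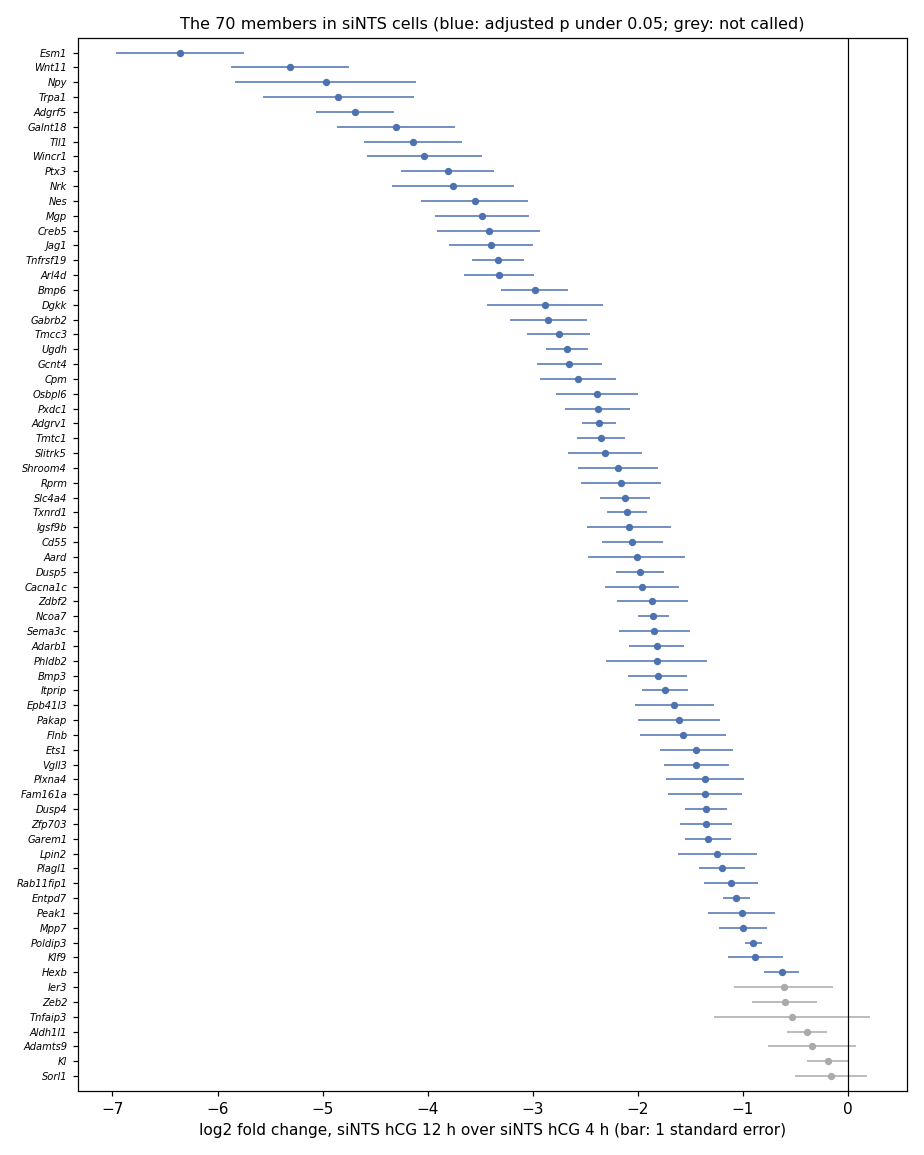
The log2 fold change from 4 h to 12 h in siNTS cells with hCG (horizontal, negative is lower at 12 h) for each of the 70 members, sorted. Bars are 1 standard error, taken as the size of the log2 change over the square root of edgeR's F value, with 4 libraries per group. Points run from -6.36 for Esm1 to -0.16 for Sorl1; 63 are blue (adjusted p under 0.05) and 7 grey.

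In siNC cells the same contrast, which holds the libraries that chose the members, gave a median of -2.01 on the log2(CPM + 1) scale, and the mean with hCG was lower at 12 h in all 70. In 62 members every siNC hCG library at 12 h lay below every one at 4 h, beside 21.1% of genes tested. For comparison, 128 genes had d4 and d12 both of at least 1. In siNTS cells 55 of those, or 43%, were lower at 12 h and 18, or 14.1%, higher, with a median log2 change of -0.51; both sets were chosen on siNC values, and the difference between them was not tested.

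Of the 7 secreted and membrane-bound signals among the members, a grouping made after the values were seen as are the other roles below, 6 fell in siNTS cells and 0 rose, with a median log2 change of -2.98. Wnt11, a WNT ligand known for signalling without beta-catenin, stood at 0.573, 0.484, 0.46 and 2.46 CPM in medium and 14.1, 7.58, 7.44 and 15 CPM with hCG in siNC cells at 4 h. The siNTS values were 14.9, 7.47, 7.1 and 14.4 CPM at 4 h against 0.183, 0.303, 0.159 and 0.451 CPM at 12 h. Every 4 h library with hCG exceeded every other library, and A_1 and B_3 exceeded A_2 and B_2 by nearly the same amount with both siRNAs. From 4 h to 12 h Wnt11 fell by 5.31 (log2, standard error 0.56, edgeR adjusted p = 1.9e-07), a 39.7-fold drop.

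Npy, neuropeptide Y, stood at 0.897, 0.563, 0.413 and 2.01 CPM in medium and 8.14, 6.75, 5.33 and 36.2 CPM with hCG at 4 h in siNC cells. In siNTS cells it stood at 6.88, 6.84, 5.16 and 33.9 CPM at 4 h against 0.179, 0.102, 0.149 and 1.19 CPM at 12 h. B_3 was the highest library in every group, yet with hCG the 4 h and 12 h groups did not overlap. At 12 h in siNC cells Npy stood at 0.0838, 0.0262, 0.152 and 0.167 CPM in medium and 0.359, 0.118, 0.193 and 0.727 CPM with hCG, higher with hCG in each label at these low levels. In siNTS cells Npy fell by 4.97 (log2, standard error 0.86, edgeR adjusted p = 8e-05).

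Jag1, a membrane-bound Notch ligand, stood at 17.6, 36.5, 37.3 and 78 CPM in medium and 136, 86.6, 80.5 and 228 CPM with hCG at 4 h, and at 21.2, 18.4, 14.5 and 22.3 CPM and 8.36, 11.1, 12.2 and 14.4 CPM at 12 h, all in siNC cells. At 12 h each hCG library was thus below the medium library of its label, and the groups did not overlap, B_3 with hCG coming closest. The siNTS values were 78.7, 88.3, 107 and 238 CPM at 4 h against 7.52, 11.8, 12.5 and 15.7 CPM at 12 h. Jag1 fell by 3.40 in siNTS cells (log2, standard error 0.40, edgeR adjusted p = 7.4e-07). It was the only member in the list of Notch genes, whose 17 other tested genes gave 6 lower and 3 higher in that contrast.

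Bmp6, a ligand of the BMP family made by oocytes and granulosa cells, stood at 13.1, 17.2, 24 and 38.2 CPM in medium and 59.6, 42.3, 54.9 and 81.3 CPM with hCG at 4 h in siNC cells, without overlap. At 12 h it stood at 5.79, 5.64, 8.15 and 6.93 CPM in medium and 5.4, 5.62, 6.9 and 8.87 CPM with hCG, so that both groups ended below the 4 h medium libraries. The siNTS libraries gave 42.7, 40.8, 56.6 and 89.2 CPM at 4 h against 5.32, 5.03, 6.4 and 11.7 CPM at 12 h, and fell by 2.98 (log2, standard error 0.32, edgeR adjusted p = 2.4e-07). Bmp3 fell by 1.81 (standard error 0.28, edgeR adjusted p = 1.9e-05). With hCG at 12 h Bmp3 stood at 23.2 to 37.1 CPM against 53.4 to 94.6 CPM in medium. Sema3c, a secreted semaphorin, fell by 1.84 (standard error 0.34, edgeR adjusted p = 0.00016).

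Among the 8 cell surface receptors and adhesion proteins, 7 fell in siNTS cells and 0 rose, with a median log2 change of -2.19. Cd55, which shields cells from complement, stood at 10.2, 23.1, 17.6 and 28.8 CPM in medium and 74.2, 124, 78.2 and 146 CPM with hCG at 4 h in siNC cells. The 12 h values were 31.9, 30, 16.7 and 31.1 CPM in medium and 19.7, 26, 18.6 and 35 CPM with hCG, which overlap. In siNTS cells Cd55 stood at 75.6, 132, 87.2 and 134 CPM at 4 h against 18.8, 26.2, 19 and 37.2 CPM at 12 h, and fell by 2.05 (log2, standard error 0.29, edgeR adjusted p = 6.2e-06). Adgrv1, a very large adhesion G protein-coupled receptor, varied little between labels: 8.72 to 9.42 CPM in medium and 41.3 to 57.1 CPM with hCG at 4 h. At 12 h the hCG libraries, at 7.31 to 11.6 CPM, all lay below the medium libraries, at 14.6 to 18.3 CPM. It fell by 2.37 in siNTS cells (standard error 0.16, edgeR adjusted p = 6.4e-10).

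Adgrf5, an adhesion G protein-coupled receptor known for its role in lung surfactant balance, stood at 55.5, 109, 70.6 and 184 CPM in medium and 357, 488, 228 and 502 CPM with hCG at 4 h in siNC cells. At 12 h the values were 15, 13.6, 10.1 and 16 CPM in medium and 10.1, 17.3, 12.1 and 21.7 CPM with hCG. In siNTS cells it stood at 210, 529, 253 and 464 CPM at 4 h against 8.59, 17.7, 11.2 and 17.7 CPM at 12 h. Every 12 h library, with or without hCG, lay below every 4 h library. Adgrf5 fell by 4.69 in siNTS cells (log2, standard error 0.37, edgeR adjusted p = 4.9e-09). In medium its mean was 2.71 lower at 12 h than at 4 h on the log2(CPM + 1) scale, the largest such decrease of any member.

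Of 10 matrix proteins, proteases and glycan enzymes, 9 fell in siNTS cells and 0 rose, with a median log2 change of -3.07. Esm1, a secreted proteoglycan best known from endothelium, stood at 8.31, 4.82, 4.55 and 6.77 CPM in medium and 26.7, 18.2, 17.8 and 30.4 CPM with hCG at 4 h in siNC cells. The siNTS libraries gave 31.7, 17.8, 18.4 and 28.8 CPM at 4 h against 0.299, 0.0991, 0.0754 and 0.705 CPM at 12 h. It fell by 6.36 (log2, standard error 0.61, edgeR adjusted p = 4.8e-08), and siNC cells at 12 h were as low, at 0.0527 to 0.561 CPM in medium and 0.0726 to 0.444 CPM with hCG.

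Because Esm1 and Adgrf5 are also made by endothelial cells, the 10 endothelial markers are given beside them. Their summed level was 9.81 to 14.5 CPM in medium and 39.1 to 79.5 CPM with hCG at 4 h in siNC cells, and 37.7 to 86.4 CPM in siNTS cells at 4 h and 12.4 to 18.7 CPM at 12 h. The increase lay in Kdr, the VEGF receptor, at 1.63 to 4.97 CPM in medium and 30.2 to 71.7 CPM with hCG. Without Kdr the other 9 markers summed to 7.96 to 9.49 CPM in medium and 6.7 to 11.8 CPM with hCG at 4 h, and to 11 to 16.8 CPM in siNTS cells at 12 h. The 13 macrophage markers summed to 15.5 to 30.5 CPM and 21.9 to 27.5 CPM in medium and with hCG at 4 h in siNC cells. The part of endothelial cells in these levels was not tested.

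Ugdh, which makes the UDP-glucuronate needed for hyaluronan, stood at 285, 241, 225 and 363 CPM in medium and 955, 722, 696 and 836 CPM with hCG at 4 h in siNC cells. At 12 h it stood at 109, 99.7, 94.9 and 136 CPM in medium and 112, 121, 106 and 119 CPM with hCG, all below the 4 h medium libraries. In siNTS cells the values were 1030, 724, 737 and 851 CPM at 4 h against 116, 121, 113 and 173 CPM at 12 h, a fall of 2.67 (log2, standard error 0.20, edgeR adjusted p = 1.7e-09). Ptx3, a pentraxin that holds the hyaluronan matrix of the cumulus together, fell by 3.81 (standard error 0.44, edgeR adjusted p = 6.4e-07), from 8.11 to 21.8 CPM down to 0.459 to 1.82 CPM. Tll1, a tolloid-like metalloprotease, fell by 4.14 (standard error 0.47, edgeR adjusted p = 4.8e-07), and Galnt18, of the family that starts O-glycans, by 4.30 (standard error 0.56, edgeR adjusted p = 3e-06).

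Adamts9, a protease that cleaves versican, was the matrix gene with no call. It stood at 18.2, 44.7, 32.4 and 58.2 CPM in medium and 113, 157, 78.9 and 228 CPM with hCG at 4 h in siNC cells, without overlap. At 12 h it stood at 207, 164, 98.8 and 204 CPM in medium and 47.2, 101, 82.4 and 183 CPM with hCG. The medium libraries thus reached the range of the hCG libraries at 4 h, and within each label hCG was below medium at 12 h. In siNTS cells the values were 64.3, 174, 85.1 and 212 CPM at 4 h against 42, 123, 91.8 and 157 CPM at 12 h, a log2 change of -0.34 (standard error 0.42, edgeR adjusted p = 0.55).

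Of 12 signalling enzymes, inhibitors and scaffolds 10 fell in siNTS cells and 0 rose, with a median log2 change of -1.48. Both ERK phosphatases among the members were in that count. Dusp5 stood at 11.4, 10.4, 13.9 and 16.8 CPM in medium and 46.2, 28.2, 32 and 46.6 CPM with hCG at 4 h in siNC cells, and at 37.7, 25.6, 28.6 and 47.2 CPM in siNTS cells. At 12 h it stood at 6.5, 7.38, 9.49 and 8.05 CPM in medium, 8.79, 7.94, 8.31 and 10.4 CPM with hCG and 7.88, 6.99, 7.81 and 12.2 CPM in siNTS cells with hCG. The fall in siNTS cells was 1.98 (log2, standard error 0.23, edgeR adjusted p = 7.7e-07).

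Dusp4 stood at 19.5, 29.4, 32.5 and 38.8 CPM in medium and 78.6, 85.3, 69.7 and 95.6 CPM with hCG at 4 h in siNC cells, without overlap. At 12 h the medium libraries stood at 31.4, 29.7, 21 and 40.3 CPM, and the hCG libraries stood at 20.3, 27.8, 24.6 and 28.6 CPM. In siNTS cells Dusp4 stood at 63.7, 88.5, 78.4 and 102 CPM at 4 h against 21.8, 35.1, 25.8 and 45.7 CPM at 12 h, and fell by 1.35 (log2, standard error 0.20, edgeR adjusted p = 1.1e-05). Dgkk, a diacylglycerol kinase, fell by 2.88 (standard error 0.55, edgeR adjusted p = 0.00023).

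Tnfaip3, which encodes the NF-kB inhibitor A20, and Ier3, an early response gene linked to ERK signalling, had no call. Tnfaip3 stood at 2.17, 4.22, 4.83 and 6.8 CPM in medium and 9.8, 11.7, 7.67 and 23.7 CPM with hCG at 4 h in siNC cells. Its siNTS values were 6.8, 13, 7.5 and 17.8 CPM at 4 h against 1.93, 3.39, 3.19 and 21.9 CPM at 12 h, where B_3 alone was not lower. The log2 change was -0.53 (standard error 0.74, edgeR adjusted p = 0.6). The same B_3 excess stood in siNC cells at 12 h, at 19.9 CPM in medium beside 1.71 to 3.29 CPM in the other labels.

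Ier3 stood at 61.6, 70.1, 76.3 and 94.1 CPM in medium and 126, 150, 146 and 218 CPM with hCG at 4 h in siNC cells. In siNTS cells it stood at 130, 150, 137 and 218 CPM at 4 h against 39.3, 55.8, 47.1 and 267 CPM at 12 h, again with B_3 apart. The log2 change was -0.61 (standard error 0.47, edgeR adjusted p = 0.31). Without the B_3 libraries, Ier3 fell by 1.57 (edgeR adjusted p = 7.3e-07) and Tnfaip3 by 1.69 (edgeR adjusted p = 0.00026). With the label as a replicate block, Ier3 fell by 0.96 (edgeR adjusted p = 0.0073) and Tnfaip3 by 1.09 (edgeR adjusted p = 0.017).

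Of 8 transcription factors and cofactors 7 fell in siNTS cells and 0 rose, with a median log2 change of -1.39. Creb5, a bZIP factor of the CREB and ATF family, stood at 2.57, 5.43, 4.97 and 14.4 CPM in medium and 30.7, 25, 13.2 and 33.7 CPM with hCG at 4 h in siNC cells. Medium in B_3 thus exceeded the lowest hCG library, B_2, while within each label hCG was higher. In siNTS cells Creb5 stood at 18.5, 25.3, 10.9 and 29.3 CPM at 4 h against 1.03, 2.37, 1.26 and 3.04 CPM at 12 h, and fell by 3.42 (log2, standard error 0.49, edgeR adjusted p = 8.1e-06). Ncoa7, a nuclear receptor coactivator, stood at 74.4 to 109 CPM in medium and 306 to 454 CPM with hCG at 4 h and fell by 1.85 in siNTS cells (standard error 0.15, edgeR adjusted p = 5.1e-09). Zeb2, a zinc finger repressor, changed by -0.60 (standard error 0.31, edgeR adjusted p = 0.12) and fell by 0.56 with the label as a replicate block (edgeR adjusted p = 0.021).

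**Figure D3:**
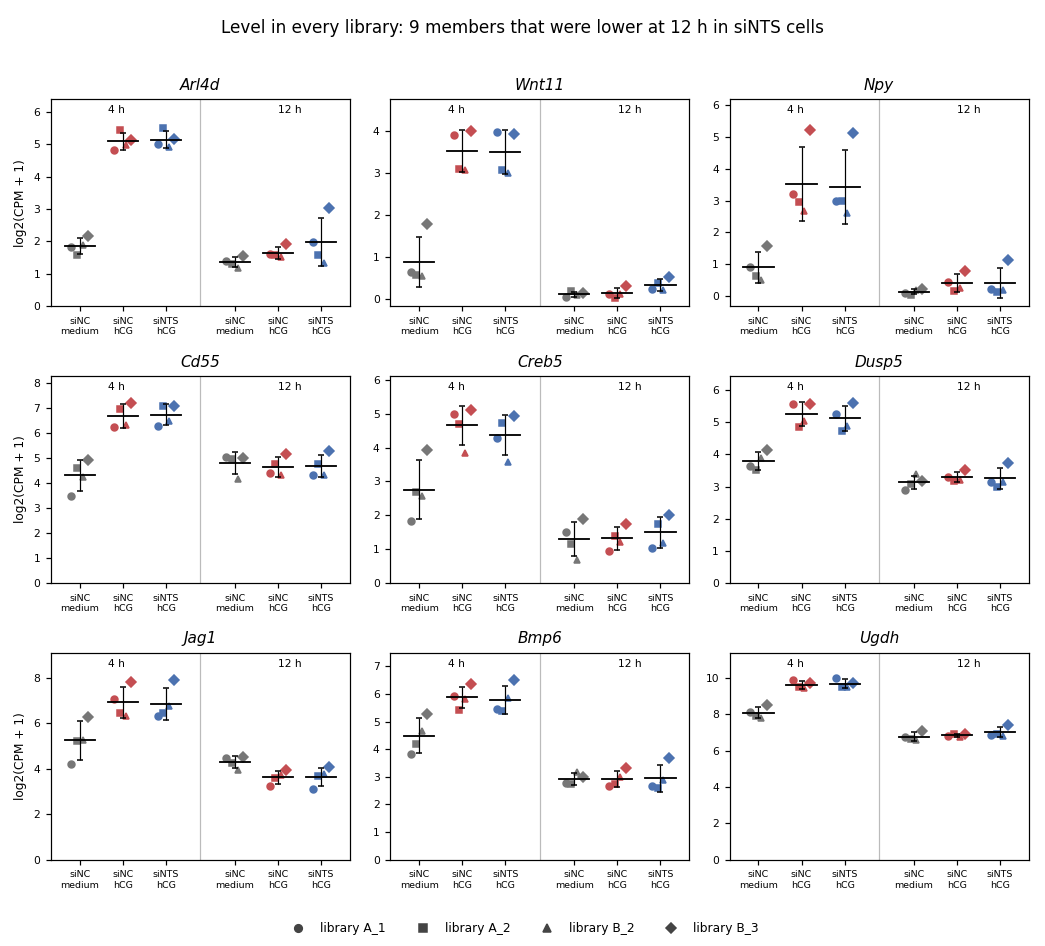
Level in log2(CPM + 1) in every library for 9 members, by group: medium with siNC (grey), hCG with siNC (red) and hCG with siNTS (blue), at 4 h and 12 h; horizontal lines are means, bars 1 SD of 4 libraries and symbols the labels. Both hCG groups stand high at 4 h, as Arl4d at 27.4 to 44.1 CPM, and low at 12 h.

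The remaining roles held fewer genes. All 4 ion channels and transporters fell in siNTS cells, with a median of -2.49: among them Trpa1, a cation channel opened by irritants, fell by 4.85 (standard error 0.72, edgeR adjusted p = 1.5e-05), and Gabrb2, Cacna1c and Slc4a4 were the others. All 6 cytoskeleton and polarity genes fell, with a median of -1.73, and all 10 RNA-related and other genes, with a median of -2.08. Nes, the intermediate filament protein nestin, fell by 3.55 (standard error 0.51, edgeR adjusted p = 8.5e-06), and Wincr1, a noncoding RNA, by 4.03 (standard error 0.55, edgeR adjusted p = 4.7e-06).

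Of 5 metabolic and redox genes 4 fell, with a median of -1.24. Txnrd1, the cytosolic thioredoxin reductase, stood at 414, 592, 677 and 1050 CPM in medium and 1380, 1180, 1280 and 1680 CPM with hCG at 4 h in siNC cells. In siNTS cells it stood at 1130, 1220, 1600 and 1790 CPM at 4 h against 250, 365, 351 and 351 CPM at 12 h, and fell by 2.10 (log2, standard error 0.19, edgeR adjusted p = 2.4e-08). All 12 h libraries of siNC cells, at 278 to 411 CPM, lay below the 4 h medium libraries. Aldh1l1, an enzyme of folate metabolism, had no call at -0.39 (standard error 0.19, edgeR adjusted p = 0.1).

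Medium itself also moved between the times. In siNC cells the medium mean was lower at 12 h than at 4 h in 53 members and higher in 17, beside 7449 and 7954 of 15405 genes tested. The median difference was -0.56 against 0.02 over all genes tested. By at least 1 on the log2(CPM + 1) scale the medium mean was lower in 15 members and higher in 2. Every 12 h medium library lay below every 4 h medium library in 22 members, beside 14% of genes tested. Every 12 h medium library lay above in 4, Adamts9, Adgrv1, Aldh1l1 and Kl, beside 12.7% of genes tested. These medium libraries took part in the choice, and nothing is read from the counts.

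With hCG, 55 members ended at 12 h below the 4 h medium mean and 15 ended above it. Of 15405 genes tested 8865 ended below and 6539 above. The difference had a median of -0.63 over members and -0.07 over all genes tested. By at least 1, 16 members ended below, and the share of all genes was not counted. The largest medium decreases belonged to Adgrf5 at -2.71, Esm1 at -2.56, Tll1 at -1.98, Bmp6 at -1.57 and Galnt18 at -1.54. The largest medium increases belonged to Adamts9 at 2.16, Sorl1 at 1.17, Aldh1l1 at 0.99, Adgrv1 at 0.78 and Kl at 0.62. In 4 of the last group, Adamts9, Aldh1l1, Kl and Sorl1, the increase in medium exceeded the decrease with hCG, which was -0.53, -0.29, -0.46 and -0.23. These are the rule's own values, and siNTS cells have no medium group to set beside them.

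**Figure D4:**
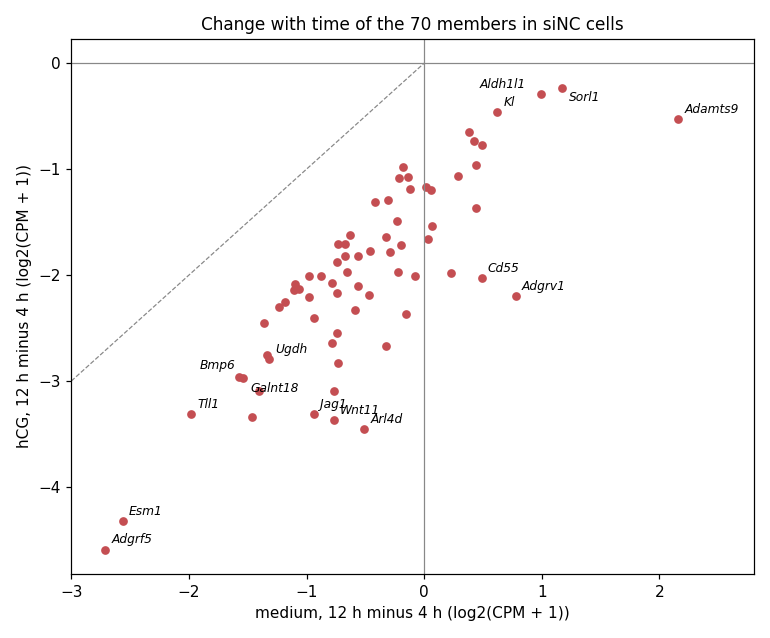
Difference between 12 h and 4 h in siNC cells in medium (horizontal) and with hCG (vertical), in log2(CPM + 1), for the 70 members; the dashed line marks equal differences, and the rule itself places all points below it. Adgrf5 lies lowest left at -2.71 and -4.59, and Adamts9 farthest right at 2.16 and -0.53.

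Sorl1, a sorting receptor of the secretory and endosomal system, stood at 8.86, 19.9, 16.8 and 35.7 CPM in medium and 38.3, 64.3, 35.6 and 63.1 CPM with hCG at 4 h in siNC cells. At 12 h it stood at 49.1, 41.8, 27.8 and 54.4 CPM in medium and 24.5, 48.9, 39.3 and 60.9 CPM with hCG. The siNTS values were 24.7, 78.9, 37.9 and 61.7 CPM at 4 h against 26, 61.7, 40.6 and 48.9 CPM at 12 h. Groups with hCG overlapped widely across time, with a log2 change of -0.16 in siNTS cells (standard error 0.34, edgeR adjusted p = 0.74).

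Kl, which encodes klotho, the coreceptor of FGF23, stood at 1.95, 2.05, 2.74 and 3.25 CPM in medium and 5.55, 9.49, 6.39 and 9 CPM with hCG at 4 h in siNC cells, and at 4.18, 4.39, 4 and 4.71 CPM and 4.17, 5.43, 4.32 and 6.95 CPM at 12 h. Its siNTS values were 4.67, 9.3, 5.55 and 8.16 CPM at 4 h against 4.95, 7.48, 5.34 and 5.85 CPM at 12 h, a log2 change of -0.19 (standard error 0.20, edgeR adjusted p = 0.46). The groups with hCG overlapped across time in both kinds of cells.

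**Figure D5:**
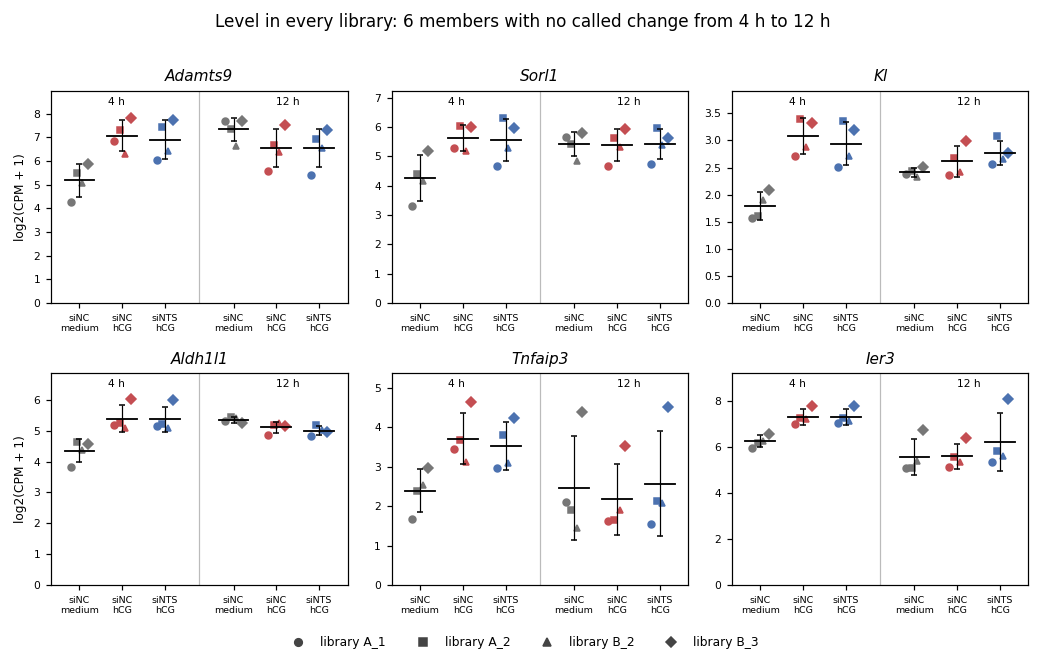
Level in log2(CPM + 1) in every library for 6 of the 7 members with no called change in siNTS cells, with groups, colours, symbols, means and SD bars of 4 libraries as in the plot of 9 members. In Adamts9, Sorl1, Kl and Aldh1l1 medium is higher at 12 h than at 4 h; in Tnfaip3 and Ier3 library B_3 stands above the rest at 12 h, as Ier3 at 267 CPM against 39.3 to 55.8 in siNTS cells.

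Levels with hCG in siNTS and siNC cells are set side by side as a description. At 4 h the difference between the siNTS and siNC group means ran from -0.43 to 0.17 on the log2(CPM + 1) scale, with a median of -0.07 against -0.02 over all genes tested. The largest were Nes at 0.17, Wincr1 at 0.13, Rprm at 0.12 and Ugdh and Arl4d at 0.05, and the smallest Mpp7 at -0.43, Creb5 at -0.28, Ptx3 and Tnfaip3 at -0.19 and Adarb1 at -0.18. In 0 members did siNTS and siNC libraries separate, in either direction, beside 0.63% of genes tested that lay wholly below and 0.201% wholly above. At 12 h the differences ran from -0.64 to 0.61, and again 0 members separated, beside 1.66% wholly below and 0.785% wholly above. That comparison ignores the labels, and spread between labels can hide differences of 1 sign within them. At 4 h siNTS was lower in every label in 6 members, Adarb1, Kl, Mpp7, Poldip3, Ptx3 and Tmcc3, beside 7.62% of genes tested, and higher in every label in Rprm and Ugdh, beside 3.16%. At 12 h it was lower in every label in 4, Gcnt4, Mpp7, Tmtc1 and Txnrd1, beside 11.6% of genes tested. It was higher in every label in 13 members, or 18.6%, beside 7.11% of genes tested, Ier3, Wnt11, Nes, Rprm and Ugdh among them. These siNC libraries chose the members, and nothing is read from the counts.

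In the authors' deposited table for 4 h, 0 of the 70 members had an adjusted p under 0.05, beside 0.418% of 14362 genes, and the smallest value of any member was 0.16. In the authors' deposited table for 12 h, 2 members did, beside 2.3% of genes: Mpp7, a scaffold protein of cell junctions, with log2 change -0.66 and adjusted p 0.02, and Wnt11 with 1.07 and 0.03. The Mpp7 libraries at 12 h stood at 11.7, 17.5, 19.5 and 17.5 CPM in siNC cells with hCG and 7.07, 12.3, 11.3 and 10.4 CPM in siNTS cells, lower with siNTS in each label, though A_2 with siNTS exceeded A_1 with siNC. For Wnt11 they stood at 0.0942, 0.0263, 0.0936 and 0.247 CPM and 0.183, 0.303, 0.159 and 0.451 CPM, all far under the 4 h level. These siNC libraries took part in the choice of members, so the values are descriptions.

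Libraries of a group differed widely for many members. The SD of log2(CPM + 1) within groups had a median of 0.42 over members, from 0.08 to 0.89, against 0.24 over 10649 tested genes with a mean of at least 5 CPM. The highest SD belonged to Tnfaip3 at 0.89 and the lowest to Poldip3, an RNA-related gene, at 0.08. In 39 members, or 55.7%, B_3 ranked first among the 4 libraries in at least 5 of the 6 groups, beside 9.69% of tested genes. A_1 ranked last in at least 5 groups for 9 members, or 12.9%, beside 17.6% of tested genes. B_3 is 1 culture date, and the part that date has in the members' levels was not tested.

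Of the 70 members 13 were in at least 1 of 16 gene lists and 57 in none. Other genes of the same pathways were tested in siNTS cells over the same contrast, in which 19.9% of all genes tested fell and 22.6% rose. Of 32 other immediate early and AP-1 genes 21 fell and 1 rose: Ier5 by 1.69, Egr2 by 2.47 and Mafk by 0.93 on the log2 scale, while Ier5l rose by 1.04. Of 31 other cyclic AMP and CREB genes 12 fell and 6 rose. Pde3a, a phosphodiesterase that breaks down cyclic AMP, fell by 4.32 and Prkaca, Per2 and Adcy9 rose by 0.61, 2.08 and 1.12. Pde3a had d4 of 1.28 and d12 of -0.01, inside both limits, and was left out by its level alone. Of 19 other ERK feedback genes 13 fell and 1 rose; Dusp2, Errfi1 and Dusp10 fell by 2.88, 1.95 and 1.66 and Etv1 rose by 1.24. Errfi1, an inhibitor of EGF receptors, had d4 of 1.97 and d12 of 1.92 and so was raised at both times. Of 16 other NF-kB genes 3 fell and 3 rose; Rela and Traf3 fell by 0.45 and 0.69 and Tnip1 and Birc3 rose by 0.89 and 0.73.

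The other lists are given by counts of genes that are no members, lower and then higher. Of 13 EGF-like ligands and ERBB receptors 8 were lower and 1 higher, of 22 RGS and small G protein genes 9 and 3, and of 31 cytokine and chemokine genes 11 and 5. Of 47 TGF-beta, BMP and activin genes 21 were lower and 10 higher, and of 37 WNT genes 20 and 7. The list of peptide hormones and secreted signals gave 33 and 7 of 59, and ovulatory transcription factors 13 and 7 of 38. Steroid and prostaglandin genes gave 8 and 6 of 29, matrix and protease genes 14 and 6 of 41, clock genes 1 and 9 of 22, and heat shock and ATF4 genes 10 and 2 of 27. These counts stand beside 19.9% of all tested genes lower and 22.6% higher in the same contrast. Many genes outside the members thus fell, and many rose.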

How the data were processed

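The deposited count table holds estimated counts per gene for 24 stranded mRNA libraries read for 151 cycles from both ends. Per the submitters' processing notes it was made with Salmon 1.4.0 and R 4.1.0, with edgeR and limma, on build GRCm39. The authors' deposited comparison tables give log2 fold changes and adjusted p-values, used here from 2 of them; 10 other tables were not used.

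CPM was taken over each column's total, with a pseudocount of 1 before log2. The members, gene lists and roles were chosen with earlier results of these data known. Estimated counts were rounded to whole numbers and fitted with edgeR 4.0.16 (R 4.3.3; quasi-likelihood, TMM, its low-count filter) over all 24 libraries, leaving 15405 genes that hold 99.97% of counts. Benjamini-Hochberg adjustment ran over those genes, at a threshold of 0.05. The contrast was siNTS with hCG, 12 h against 4 h, and the fit was tested on simulated data. Standard errors given with edgeR values are the size of the log2 change over the square root of its quasi-likelihood F value. DESeq2 1.42.0 and limma 3.58.1 were alternatives.

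Named genes are the members with the 12 largest d4 values, the 5 at either end of the siNTS time change, of the medium change and of the siNTS and siNC difference at 4 h, up to 5 of each list, 3 on either side of each limit (1 of them is not reported here), and up to 4 others of the immediate early, cyclic AMP, ERK and NF-kB lists. The 18 members given library by library in siNTS cells at both times, and a few more named to fill a role or for a call, were picked after values were seen.

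Deviations from group means of same-label libraries, which share a culture date, correlated at 0.906 (A_1), 0.801 (A_2), 0.183 (B_2) and 0.398 (B_3) over 10798 genes between the siNTS groups. Labels thus pair them closely for A_1 and A_2 and weakly for B_2 and B_3. The main fit held no term for label or date, so its calls ignore this pairing, and fits with a block are given below. Libraries of a group all differed beyond counting noise, with chi-square over degrees of freedom from 22.4 to 432 in 36 pairs.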

Additional observations from a re-analysis of the deposited data

Results flagged for a closer look

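The 18 members given library by library in siNTS cells at both times were searched for 1 library far from the other 3 (Dixon's ratio of gap to range). The search ran over all 6 groups, 108 sets of 4 libraries. For independent sets of normally spread values chance alone picks out about 1 in 20. These sets share libraries and hold CPM values, so that rate need not apply to them. The search found 15 sets, 12 of them with B_3 as the highest library. The part of the B_3 culture in them was not tested.

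In siNC cells in medium at 4 h, Wnt11 stood at 2.46 CPM in B_3 against 0.46 to 0.573 in the others. Npy stood in B_3 at 36.2 CPM against 5.33 to 8.14 in siNC cells with hCG at 4 h, at 33.9 CPM against 5.16 to 6.88 in siNTS cells at 4 h and at 1.19 CPM against 0.102 to 0.179 in siNTS cells at 12 h.

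At 12 h in siNC cells in medium, B_3 held Esm1 at 0.561 CPM (others 0.0527 to 0.0924), Tnfaip3 at 19.9 CPM (others 1.71 to 3.29) and Ier3 at 104 CPM (others 32.8 to 40.9). With hCG at 12 h, B_3 held Tnfaip3 at 10.4 CPM in siNC cells (others 2.1 to 2.75) and at 21.9 CPM in siNTS cells (others 1.93 to 3.39). In siNTS cells at 12 h B_3 also held Ier3 at 267 CPM (others 39.3 to 55.8), Ugdh at 173 CPM (others 113 to 121) and Dusp5 at 12.2 CPM (others 6.99 to 7.88).

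The other 3 sets had a low library. Cd55 stood at 16.7 CPM in B_2 in siNC cells in medium at 12 h against 30 to 31.9. Txnrd1 stood in A_1 at 278 CPM against 360 to 367 in siNC cells with hCG at 12 h and at 250 CPM against 351 to 365 in siNTS cells.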

How the results depend on the processing

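In siNTS cells the count of members lower at 12 h was 63 with RLE scaling, with no filter, with a filter at a mean of 1 CPM, with DESeq2 and with the siNTS libraries alone. It was 64 with limma-voom, 58 with a minimum change of 1.5-fold, and 59 to 65 with 1 label left out. With the label as a replicate block, or the date as a block, it was 66. The block changed no call other than adding Ier3, Tnfaip3 and Zeb2. Members higher at 12 h stayed at 0 in all of these. Among 416 refits of 32 named members 406 kept direction and call, 9 gained a call and 1 (Mpp7 at a minimum of 1.5-fold) lost it, with none turned in direction.

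The membership itself moved more. The rule found 35 genes with d12 below 0 and 41 to 108 with 1 label left out: 41 without A_1 (37 shared with the 70), 81 without A_2, 108 without B_2 and 86 without B_3. It found 72 with TMM-scaled CPM, 59 with a pseudocount of 5 (39 shared), 75 with one of 0.5, 60 and 94 at minimum levels of 10 and 1 CPM, 103 with d12 below 0.5 and 89 with A_2 and B_2 averaged. The cause was not tested. Members under about 1 CPM at 12 h, such as Wnt11, Npy and Esm1, rest on few counts there, so the size of their fall is less certain than its direction.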
